A study of Drosophila melanogaster with 4 samples.

Results

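The 7 genes described here encode zinc carboxypeptidases of the M14 family in the fruit fly Drosophila melanogaster: CG12374, CG17633, CG8560, CG8562, CG18585, CG7025 and CG4017. They were picked by family and by their normalized counts in these same libraries, out of 13585 genes in the deposited table, so their levels and ratios are a description and carry no test. The libraries hold poly(A) RNA of midguts, the main digestive part of the fly gut, from flies labelled as control or as uracil-treated. There was 1 library for each of 4 groups: untreated at 2 h, uracil at 2 h, untreated at 16 h and uracil at 16 h. Strain, sex, age, uracil dose, route and the number of guts behind a library are not given in the labels. Uracil, a nucleobase, is secreted by certain bacteria of the fly gut.

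M14 carboxypeptidases cut single amino acids from the carboxyl end of a protein or peptide, with a zinc ion in the active site. In digestive tracts they work after the endopeptidases, such as trypsins, which cut inside the protein chain and so create new ends. Digestive members are in general secreted as inactive proenzymes, and in mammals trypsin removes their propeptide. The preferred amino acids of these 7 fly enzymes are not stated by any source used here.

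The libraries held between 8500378 and 16588143 reads in genes, and untreated 16 h was the deepest. A normalized count here is a gene's read count divided by the library's effective size, and 1 read was worth 0.0584 to 0.127 normalized counts. Intervals in brackets are exact 95% counting intervals and cover counting error only, since reads may come from copies of 1 molecule and there are no repeat libraries. All 12 midgut markers were detected in every library, with summed levels of 10448 to 12587 normalized counts. Of the 7 carboxypeptidases, 6 passed the filter on low values (a mean over the 4 libraries of at least 1 CPM, a read count scaled to a common library total), as did 8560 genes in all, and CG4017 did not.

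Together the 7 genes summed to 18217 normalized counts in untreated guts at 2 h, 15527 with uracil at 2 h, 11348 in untreated guts at 16 h and 15958 with uracil at 16 h. That is 1.69%, 1.46%, 1.17% and 1.63% of all reads in genes, in the same order. CG12374 alone made up 83.5%, 85.2%, 73.4% and 64.0% of these sums. Without it, the other 6 genes summed to 3013, 2300, 3019 and 5745 normalized counts, so the total was highest in untreated guts at 2 h and the rest was highest with uracil at 16 h.

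Per kilobase of annotated exon, the mean over the 4 libraries was 8022 normalized counts for CG12374 and 1474 for CG17633. CG8560 followed with 510 normalized counts per kilobase, CG8562 with 384, CG18585 with 66.4, CG7025 with 48.4 and CG4017 with 0.585. The order was the same in every library except uracil at 2 h, where CG18585, CG7025 and CG4017 had only 7, 0 and 5 reads, too few to order them.

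**Figure D1:**
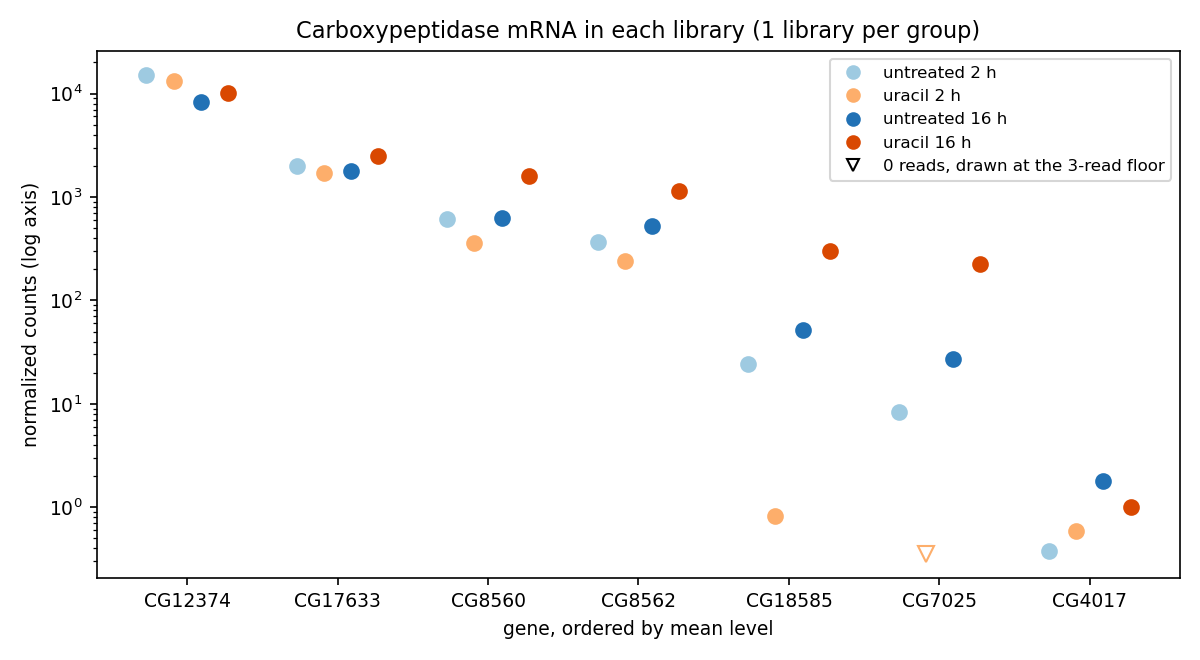
Normalized counts (log axis) of each carboxypeptidase gene in the 4 libraries, 1 point per library, with genes ordered by mean level. CG18585 and CG7025 spread most, from 0.827 to 301 and from 0 to 226 normalized counts, and the open triangle marks the 0 reads of CG7025 in uracil guts at 2 h, drawn at the floor of 3 reads.

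CG12374 (FBgn0033774, on arm 2R from 12762113 to 12763825, plus strand) had the highest normalized counts of the whole table in all 4 libraries. It stood at 15204 normalized counts in untreated guts at 2 h, 13227 with uracil at 2 h, 8330 in untreated guts at 16 h and 10213 with uracil at 16 h. Both 2 h libraries were above both 16 h libraries. Positions here come from the Ensembl annotation of build BDGP6.54, looked up by gene ID, and the authors' build may differ. Per kilobase of exon, CG12374 ranked 2, 3, 1 and 1 among 12888 genes, in the same order of libraries. With uracil it was 0.870 times the untreated level at 2 h (0.863 to 0.877) and 1.23 times at 16 h (1.22 to 1.24). In untreated guts its level at 16 h was 0.548 times that at 2 h (0.544 to 0.552), the widest gap for this gene.

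CG17633 (FBgn0032144, on 2L from 9769060 to 9770409, plus strand, 1 exon) was the next most abundant of the 7. Its normalized counts were 1997 in untreated guts at 2 h, 1696 with uracil at 2 h, 1793 in untreated guts at 16 h and 2474 with uracil at 16 h. The highest library was 1.46 times the lowest, the narrowest range among the 7 genes. The uracil to untreated ratio was 0.849 at 2 h (0.830 to 0.869) and 1.38 at 16 h (1.36 to 1.40), so this gene and CG12374 stayed within 2-fold in all 4 comparisons.

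CG8560 (FBgn0035781, on 3L from 7402332 to 7404181, minus strand) stood at 618 normalized counts in untreated guts at 2 h, 360 with uracil at 2 h, 621 in untreated guts at 16 h and 1595 with uracil at 16 h. The untreated libraries were nearly equal, with uracil lower at 2 h and higher at 16 h. The ratio to untreated was 0.583 at 2 h (0.557 to 0.610) and 2.57 at 16 h (2.51 to 2.64). In rank among all genes it went from place 597 in uracil guts at 2 h to place 57 in uracil guts at 16 h.

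CG8562 (FBgn0035779, on 3L from 7398285 to 7399912, plus strand) lies in the same stretch of arm 3L. Its normalized counts were 365 in untreated guts at 2 h, 242 with uracil at 2 h, 525 in untreated guts at 16 h and 1147 with uracil at 16 h. The order of the libraries was again uracil at 2 h lowest and uracil at 16 h highest. The ratio to untreated was 0.665 at 2 h (0.628 to 0.703) and 2.19 at 16 h (2.13 to 2.25). Per kilobase of exon CG8562 was 0.624, 0.711, 0.893 and 0.759 times CG8560, with libraries in the order untreated 2 h, uracil 2 h, untreated 16 h and uracil 16 h.

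CG18585 (FBgn0031929, on 2L from 7689311 to 7691061, minus strand) had 24.3 normalized counts in untreated guts at 2 h, 0.827 with uracil at 2 h, 51.9 in untreated guts at 16 h and 301 with uracil at 16 h. These rest on 192, 7, 889 and 2714 reads. Uracil at 2 h was far below the other libraries and uracil at 16 h far above them. The level with uracil was 29.4-fold lower at 2 h (14.02 to 74.21). At 16 h it was 5.80 times the untreated level (5.37 to 6.26). By the log2 ratio it was the 3rd lowest of 8560 genes at 2 h and in place 74 from the top at 16 h.

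CG7025 (FBgn0031930, on 2L from 7691109 to 7692683, minus strand) had 8.37 normalized counts in untreated guts at 2 h, 0 with uracil at 2 h, 27.1 in untreated guts at 16 h and 226 with uracil at 16 h. The reads were 66, 0, 464 and 2039. The order of the libraries was that of CG18585. Set against a floor of 3 reads in that library (0.354 normalized counts), uracil guts at 2 h were 23.6-fold lower than untreated guts. The exact lower counting limit for 0 against 66 reads was 18.7-fold. At 16 h the gene was 8.34-fold higher with uracil (7.54 to 9.25). Per kilobase of exon CG7025 was 0.362, 0.550 and 0.792 times CG18585 in untreated guts at 2 h, untreated guts at 16 h and uracil guts at 16 h, so the levels lay nearer to each other where both were higher.

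CG4017 (FBgn0032143, on 2L from 9767058 to 9768727, plus strand) had 3 reads in untreated guts at 2 h, 5 with uracil at 2 h, 31 in untreated guts at 16 h and 9 with uracil at 16 h. In normalized counts this was 0.380, 0.591, 1.81 and 0.998. The counting intervals of the uracil to untreated ratio spanned 1 at both times (0.302 to 9.999 at 2 h and 0.231 to 1.19 at 16 h), so no difference was detectable at this depth. In untreated guts the ratio of 16 h to 2 h was 4.76 (1.48 to 24.3), with 31 against 3 reads.

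Set side by side at 2 h, 2 of the 6 filtered carboxypeptidases, CG18585 and CG7025, were below untreated by 2-fold or more in uracil guts and 0 were above it by as much. Among all 8560 genes, 1.5% were that much higher and 1.51% that much lower. The log2 ratios, taken after adding the value worth 1 CPM (1.022 normalized counts), had a median of -0.68 over the 6 genes and 0.01 over all genes. All 6 were below 0, while 4464 of the 8560 genes were above it. Since the members were picked with these ratios in view, nothing is read from their share.

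At 16 h, 4 of the 6 were at least 2-fold higher with uracil (CG7025, CG18585, CG8560 and CG8562) and 0 were lower, beside 7.66% of all genes higher and 0.993% lower. The median log2 ratio was 1.24 over the 6 and -0.02 over all genes. CG12374 (0.29) and CG17633 (0.46) were also above 0 on the log2 scale. All 6 genes were thus lower with uracil at 2 h and higher with uracil at 16 h. The amounts ran from small (CG12374) to large (CG18585 and CG7025). Above 0 at 16 h were 4158 of all 8560 genes. How many genes shared both signs was not counted, and nothing is read from the signs of the members. Of the 8560 genes, 95 were lower by 2-fold or more at 2 h and higher by as much at 16 h. They are 73.6% of the 129 genes lower at 2 h and 14.5% of the 656 higher at 16 h, and CG18585 and CG7025 are among them.

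**Figure D2:**
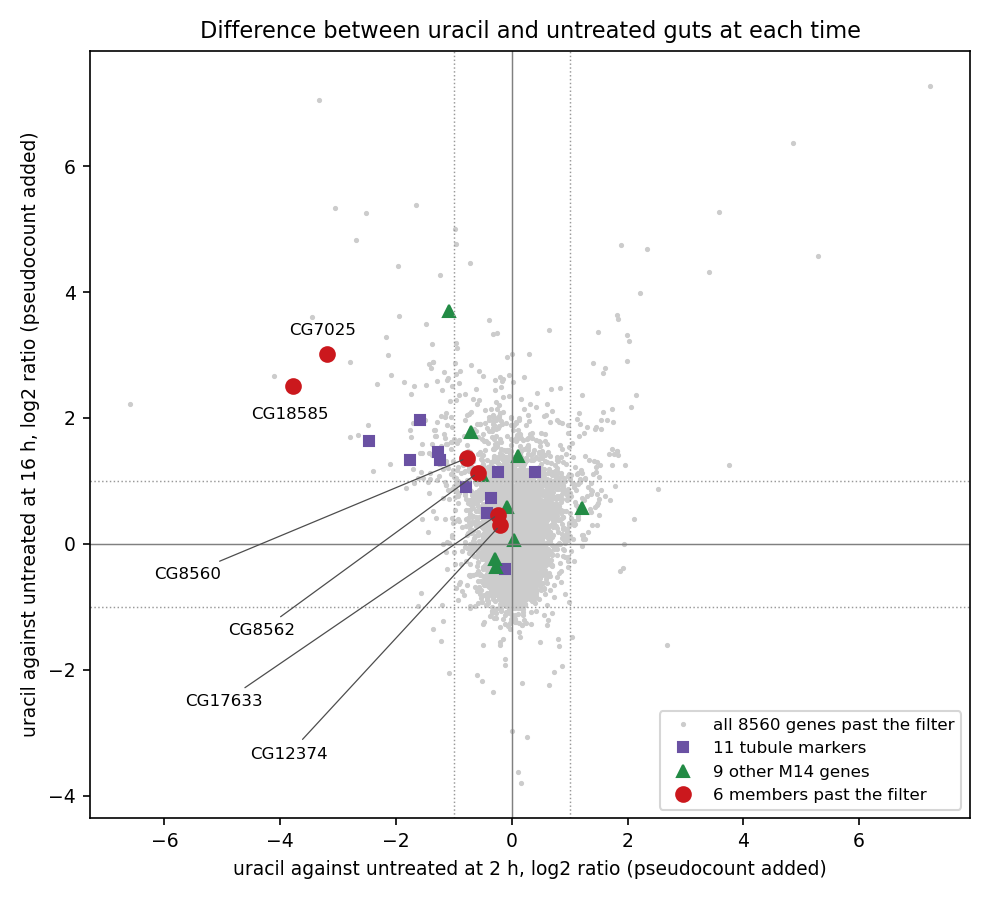
Log2 ratio of uracil to untreated guts at 2 h (horizontal) against the same at 16 h (vertical), 1 point per gene past the filter, with dotted lines at 2-fold. All 6 carboxypeptidases lie at the upper left, with CG18585 at -3.78 and 2.51 and CG7025 at -3.20 and 3.01, and 9 of the 11 tubule markers lie there too.

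With time in untreated guts, 2 of the 6 were at least 2-fold higher at 16 h than at 2 h, CG18585 (2.13-fold, 1.82 to 2.51) and CG7025 (3.24-fold, 2.50 to 4.26), and 0 were lower. All genes gave 2.8% higher and 2.84% lower. CG8560 had a ratio of 1.005 (0.971 to 1.04), the nearest to equal among the 7. CG8562 was at 1.44 times its 2 h level, and CG17633 stood at 0.898 (0.880 to 0.915). The call for CG18585 rests on the amount added before the logarithm, with a log2 ratio of 1.06 as used here and 0.95 with 5 times that amount.

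With time in uracil guts, 4 of the 6 were at least 2-fold higher at 16 h and 0 were lower, beside 9.38% and 2.9% of all genes. This comparison uses the same libraries as those above, so it is no separate evidence. CG18585 was 364-fold higher (176 to 906), against only 7 reads at 2 h. CG7025 was 638-fold higher when set against the floor, with an exact lower counting limit of 518-fold. These were the 3rd and 2nd largest log2 ratios of 8560 genes. CG8562 was 4.73-fold higher (4.51 to 4.96) and CG8560 4.43-fold higher (4.26 to 4.61), while CG12374 had a ratio of 0.772 (0.765 to 0.779) and CG17633 one of 1.46 (1.43 to 1.49).

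Of the 7 genes, 6 lie close to another M14 gene. CG18585 and CG7025 are on the same strand, 47 bases apart. The end of CG18585 overlaps an exon of Myo28B1, a myosin gene on the other strand, by 149 bases, and with the strand setting of the counting not given, reads there cannot be assigned with certainty. Myo28B1 had 877, 854, 648 and 518 normalized counts in untreated 2 h, uracil 2 h, untreated 16 h and uracil 16 h, an order that differs from that of CG18585. CG4017 and CG17633 are 332 bases apart on the same strand, yet CG17633 was 1185 to 6284 times as high as CG4017 per kilobase, with 3 to 31 reads of CG4017 per library. Both lie within the span of ppk18 on the other strand, and that gene was not analysed here.

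CG8562 and CG8560 belong to a run of 6 M14 genes within 18534 bases of arm 3L: CG8564, CG8563, CG32379, CG8562, CG18417 and CG8560. CG32379 lies 76 bases before CG8562 and had 13, 2, 8 and 165 reads in untreated 2 h, uracil 2 h, untreated 16 h and uracil 16 h. Its ratio of uracil to untreated was 39.2 at 16 h (19.4 to 92.2). CG18417 lies between CG8562 and CG8560 and did not share their order. It had 25.7, 20.9, 69.2 and 58.3 normalized counts in the same order of libraries, with log2 ratios of -0.29 and -0.24 for uracil at 2 h and at 16 h, and of 1.39 and 1.44 for time in untreated and in uracil guts. CG8564 and CG8563 had at most 10 reads in any library and did not pass the filter. The neighbour of CG12374, Nacalpha, had 555, 590, 577 and 622 normalized counts.

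**Figure D3:**
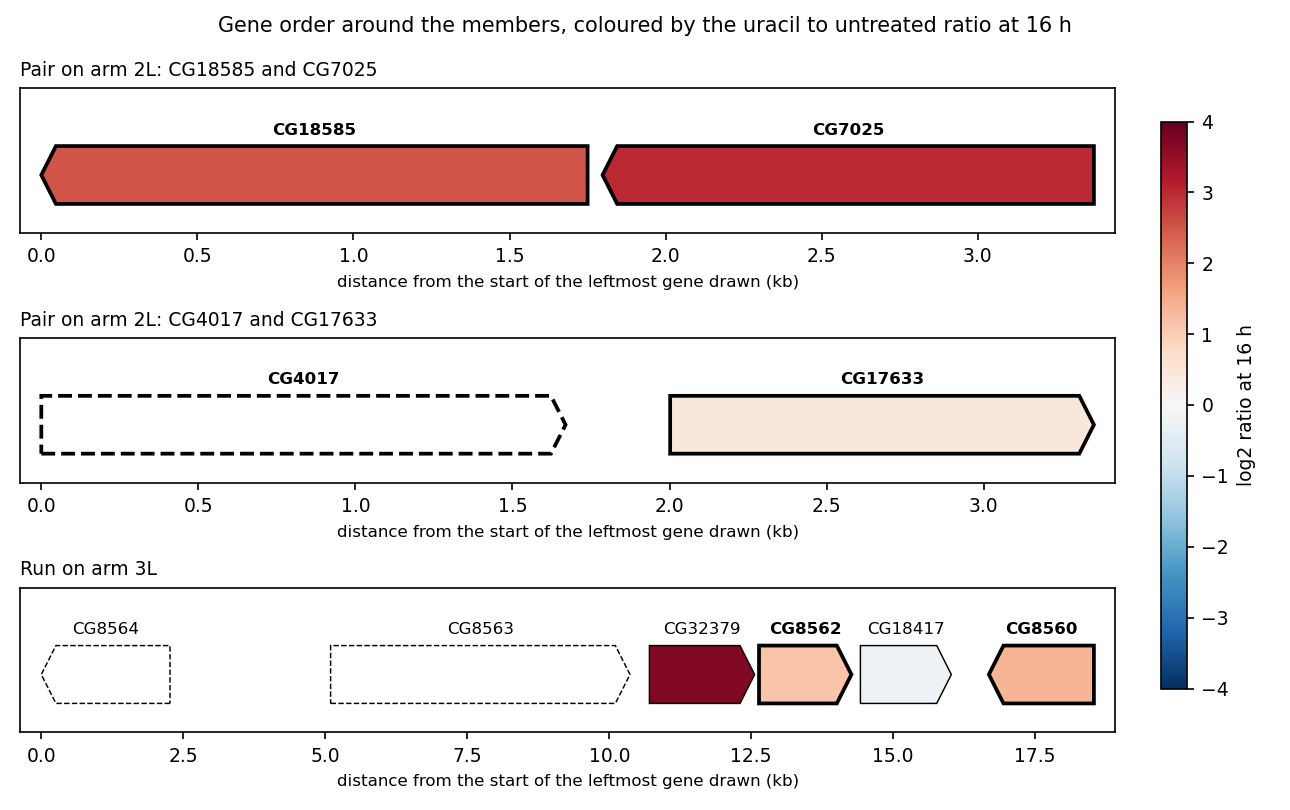
Gene order around the members, with distance in kilobases from the start of the leftmost gene drawn and arrows for the strand. Thick outlines are the carboxypeptidases described here, dashed outlines are genes below the filter, and colour is the log2 ratio of uracil to untreated at 16 h, from 3.70 for CG32379 and 3.01 for CG7025 to -0.24 for CG18417 among the coloured genes.

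The 4-library profiles of the members were compared by the distance between their log2 values, each centred on its own mean. Of 21 pairs the nearest was CG8560 with CG8562 (distance 0.372), then CG18585 with CG7025 (0.725) and CG12374 with CG17633 (0.824), while the furthest was CG7025 with CG12374 (6.03). These distances rest on 4 libraries and are a description.

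Among 6153 other genes averaging 10 CPM or more, the nearest profile to both CG18585 and CG7025 was that of zetaTry, a trypsin-like protease. Its normalized counts were 18.5 in untreated guts at 2 h, 0.118 with uracil at 2 h, 23.5 in untreated guts at 16 h and 156 with uracil at 16 h, and its distances were 0.552 and 1.19. Cyp4d1, a cytochrome P450, came next for both (1.57 and 1.66), with 6.59, 0.709, 10.8 and 93.6 normalized counts in the same order. CG12374 was nearest to Jon99Ci, a Jonah serine protease of the gut (0.0317), and then to CG17192 (0.0574). Jon99Ci had 2079, 1764, 1137 and 1400 normalized counts.

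CG8560 was nearest to Tps1 (0.188), an enzyme of trehalose synthesis, and to CG34386 (0.253). CG8562 was nearest to Cyp4e2 (0.138), another cytochrome P450, and to pyd3 (0.185), an enzyme of pyrimidine breakdown. CG17633 was nearest to Cep135 (0.0511), a centriole component, and to Cyp6t1 (0.0531), and CG4017 to mRpS10 (0.0653), a mitochondrial ribosomal protein, and Art3 (0.110). With 4 libraries many genes share a profile, and the lowly counted CG4017 could match many.

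Of 17 names of other M14 genes listed, 15 were found and 9 passed the filter. At 2 h, 1 was at least 2-fold higher with uracil (CG4408, 29 against 7 reads) and 1 lower (CG32379), with a median log2 ratio of -0.28. At 16 h, 4 were higher (CG32379, CG14820, CG3097 and CG31019) and 0 lower, with a median of 0.58. The call for CG31019 rests on 64 against 48 reads. Over all genes, 1.5% were higher and 1.51% lower at 2 h, and 7.66% and 0.993% at 16 h. CG14820 stood at 53.4 normalized counts in untreated guts at 2 h, 32.5 with uracil at 2 h, 63.6 in untreated guts at 16 h and 219 with uracil at 16 h, the library order of CG8560 and CG8562. CG3097 had 9.51, 10.3, 20.9 and 56.3 normalized counts in that order, with the 2 h libraries nearly equal. CG31019 was low, at 4.82, 3.07, 2.80 and 7.10 normalized counts.

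The most abundant of these other genes, svr, encodes a carboxypeptidase D that processes peptides in the secretory pathway. It had 159, 150, 158 and 237 normalized counts in the order untreated 2 h, uracil 2 h, untreated 16 h and uracil 16 h. CG2915 stood at 68.6, 70.3, 84.3 and 87.5 normalized counts, all 4 libraries within 2-fold. With time, 2 of the 9 were at least 2-fold higher in untreated guts (CG18417 and CG3097) and 0 lower. In uracil guts 4 were higher and 1 lower. The shares of all genes were 2.8% higher and 2.84% lower in untreated guts, and 9.38% and 2.9% in uracil guts. In the additive limma model of treatment and time, none of the 9 had an adjusted p under 0.05 for uracil (0 at an unadjusted p under 0.05, and 0 adjusted and 1 unadjusted with edgeR) or for time (3 unadjusted, and 0 adjusted and 2 unadjusted with edgeR). The smallest adjusted p was 0.0699, for a higher level of CG18417 at 16 h (limma log2 effect 1.41, SE 0.213). Over all genes that model called 3 genes for uracil (0.035%) and 36 for time (0.421%). The model fits 1 uracil effect shared by both times and takes the treatment-by-time difference as error. It therefore cannot decide about genes that reverse between the times, such as CG32379 (log2 ratios of -1.09 at 2 h and 3.70 at 16 h).

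Other digestive peptidases were counted in the same way. Aminopeptidases of the M1 family, which cut from the amino end, had 2 of 12 filtered genes at least 2-fold higher and 1 lower with uracil at 2 h (median log2 ratio -0.13), and 6 higher and 0 lower at 16 h (median 0.89). Their most abundant members were CG31198, at 3322, 2692, 2825 and 4768 normalized counts in the order untreated 2 h, uracil 2 h, untreated 16 h and uracil 16 h, and CG31233, at 2990, 2351, 1907 and 2402. Of 10 filtered trypsins, 0 were higher and 2 lower at 2 h (median -0.15), and 3 were higher and 0 lower at 16 h (median 0.27). The most abundant, alphaTry (7390, 6662, 3924 and 4796) and betaTry (7383, 6758, 3811 and 4427), are near-identical copies whose reads may have been split between them. For time, the limma model called 2 of the 10 trypsins lower and 0 higher, deltaTry and epsilonTry, and edgeR called 0. Of 5 serine carboxypeptidases, 0 differed 2-fold at 2 h (median 0.03) and 1 was higher at 16 h (median -0.23). Of these, hiro had 786, 801, 691 and 587 normalized counts and CG4572 had 282, 244, 281 and 204.

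Markers of other tissues also differed between the libraries. Their counts stand beside 1.5% of all genes at least 2-fold higher and 1.51% lower with uracil at 2 h, and 7.66% and 0.993% at 16 h. Malpighian tubule markers with uracil at 2 h were lower by 2-fold or more in 5 of 11 cases and higher in 0 (median -0.79), while at 16 h 7 were higher and 0 lower (median 1.14). Their sums ran from 1218 in untreated guts at 2 h to 933 with uracil at 2 h, 1457 in untreated guts at 16 h and 2069 with uracil at 16 h. Most of each sum came from Cyp6g1 (524, 388, 602 and 846) and Ugt35C1 (389, 358, 577 and 438). At 16 h Ugt35C1 was lower with uracil while the sum was higher, so the sums do not track these genes alone. Of the 11 markers none was at 0, and NaPi-T, a phosphate transporter, stood at 49.0, 15.6, 56.4 and 224 normalized counts in that order. The tubules join the gut at the hind end of the midgut. Of the 12 midgut markers, whose sums were 12587, 11170, 10625 and 10448, 1 was at least 2-fold higher and 2 lower with uracil at 2 h, and 3 were higher and 0 lower at 16 h (medians -0.14 and -0.06). Those lower at 2 h and higher at 16 h were cad, a transcription factor of the posterior gut (27.1, 10.04, 31.0 and 111), and the gut protease gene Jon65Ai (803, 392, 346 and 1065). Npc1b, a gene of sterol uptake, was higher with uracil at both times (92.3, 331, 103 and 277). The transcription factor gene lab was at 60.1, 67.2, 118 and 59.1, a log2 ratio of -0.98 at 16 h. The part of these markers in the carboxypeptidase ratios was not tested, and in bulk tissue fewer cells of a type and less RNA per cell cannot be told apart.

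Visceral muscle markers went another way, with sums of 1196 and 2003 in untreated and uracil guts at 2 h and of 1212 and 2606 at 16 h, higher with uracil at both times (1 and 6 of 9 at least 2-fold higher, 0 lower, medians 0.77 and 1.04). The 7 hemocyte markers found summed to 196 to 263 normalized counts, most of it from crq (126 to 168). Of the 6 that passed the filter, 2 were lower by 2-fold or more and 0 higher with uracil at 2 h, and 3 were lower and 1 higher at 16 h. Hml had 17.1, 6.73, 9.75 and 2.66 normalized counts, NimC1 4.57, 1.42, 3.45 and 0.887, and PPO2 10.9, 6.85, 10.4 and 1.66, in the order used above. Higher with uracil at 16 h were srp (48.4, 41.6, 31.5 and 64.8), Pxn (6.85, 9.81, 14.5 and 24.2) and crq (137, 138, 126 and 168). Of 10 fat body markers, Fbp1, Fbp2, Lsp2, Lsp1alpha and Lsp1beta were at 0 in at least 1 library, and the sums were 858 to 1160. Of 5 past the filter, 0 differed 2-fold at 2 h, and 1 was higher and 0 lower at 16 h. The part of these markers was not tested either.

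**Figure D4:**
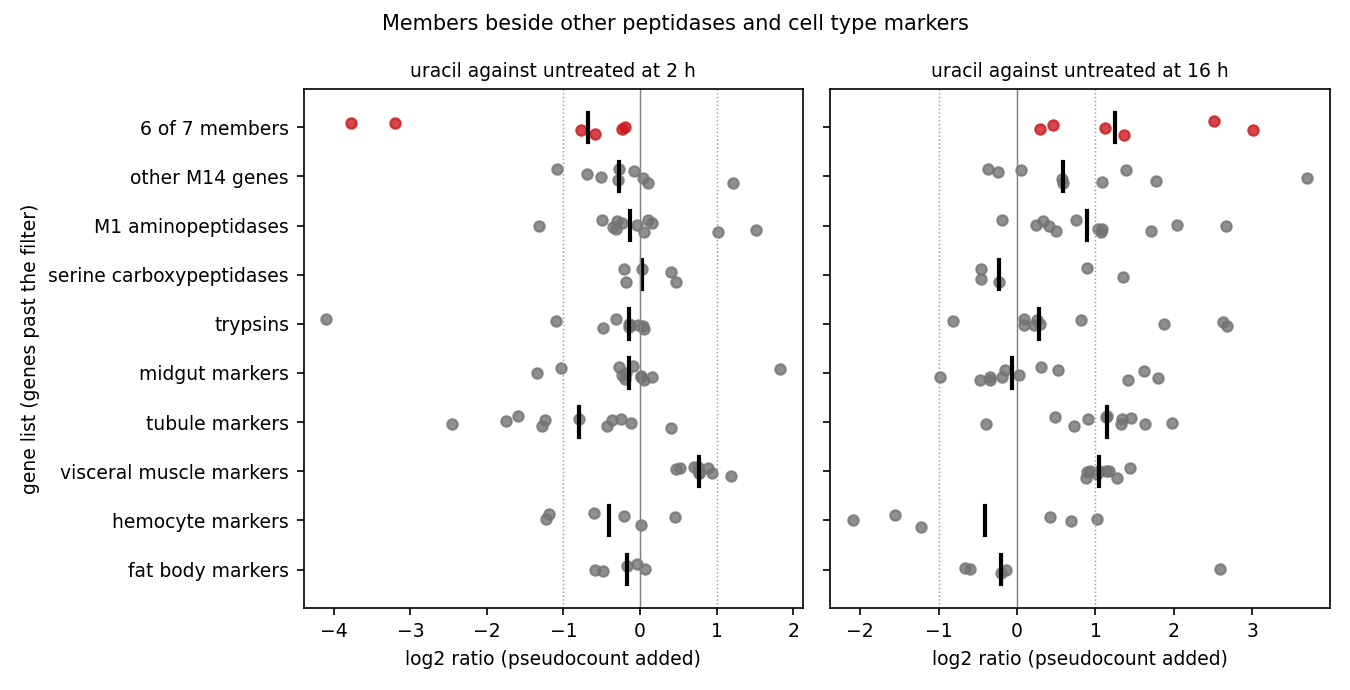
Log2 ratio of uracil to untreated at 2 h (left) and at 16 h (right) for genes past the filter, 1 point per gene and 1 row per list, with black bars at the medians and dotted lines at 2-fold. The members and the tubule markers have medians of -0.68 and -0.79 at 2 h and of 1.24 and 1.14 at 16 h.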

How the data were processed

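Per the submitters' processing notes, the tools were TopHat2 2.0.5 and Bowtie, cutadapt 1.0, edgeR and HTSeq, with no roles or settings. Build, annotation and strandedness: not given in the sources used here. A single table was deposited by the authors, with normalized counts, a signal value per gene and library. Its values were whole multiples of 1 step per library for 100% of entries (tolerance 0.01 reads), which gave back the reads. Of 13646 lines, 118 shared 57 gene IDs and were summed. The pseudocount was 1.022, and a gene needed a mean of 1 CPM or more to enter (8560 did). A gene at least 2-fold apart after the pseudocount was counted, without a test, since each group had 1 library. Ratios carry exact Clopper-Pearson intervals, with a floor of 3 reads for a count of 0.

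An additive model of treatment and time (limma 3.58.1, trend, Benjamini-Hochberg FDR 0.05) was used for genes that are no members. It has 1 residual degree of freedom, which is the treatment-by-time difference, and does not replace replicates. It and edgeR 4.0.16 on whole reads were tested on simulated data with a uracil effect shared by both times. Genes that reverse between the times were not covered by that test. Exon lengths and neighbours come from Ensembl BDGP6.54 by gene ID. The genes named are all 7 members, the 3 most abundant other M14 genes and those called, the 2 most abundant of each peptidase list, the 2 nearest profiles and the neighbours. Marker genes named singly were chosen after their values were seen. The members and lists were chosen with earlier results of these data known. Among IDs with at least 40 reads, 84 shared all 4 counts with another and were kept out of the lists. Pseudocount, filter, scaling and test were varied.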

Additional observations from a re-analysis of the deposited data

Results flagged for a closer look

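The 6 members and 9 other M14 genes past the filter were examined. In 8, uracil was below untreated at 2 h and above it at 16 h, with both counting intervals of the ratio clear of 1. With many reads such intervals clear 1 at small differences, as for CG12374 at 2 h (ratio 0.870). The share of all genes meeting this rule was not counted. Since the members were picked with these ratios in view, nothing is read from the number. With 1 library per group, the difference between the times was not tested. The log2 ratio at 16 h minus that at 2 h was 6.29 for CG18585 and 6.213 for CG7025. Both values depend on the pseudocount, as these genes had 7 and 0 reads in uracil guts at 2 h. With the pseudocount varied, the log2 ratio at 2 h ran from -4.215 to -2.31 for CG18585 and from -4.119 to -1.399 for CG7025. The difference between the times was 2.137 for CG8560 and 1.715 for CG8562. For the abundant CG12374 it was 0.495, and for CG17633 it was 0.7006. Among the M14 genes outside the 7 it was 4.782 for CG32379 and 2.47 for CG14820. The ratios of svr and CG31019 had the same directions, but their intervals at 2 h held 1 (0.873 to 1.02 for svr and 0.372 to 1.08 for CG31019).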

How the results depend on the processing

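Each of the 28 values of the members (7 genes, 4 comparisons) was recomputed under the alternatives, 164 in all. Of these, 145 shifted by no more than the wider side of their counting interval, 19 shifted further and 0 changed sign among called values. That allowance is wide for few reads, as in CG4017, and narrow for many, as in CG12374. The alternatives on the filter change only which genes enter, so member values under them could not move. The sign was kept in 27 of the 28, the exception being CG8560 with time in untreated guts (-0.006 to 0.160). The side of 2-fold was kept in 26, the exceptions being CG18585 (0.95 to 1.21) and CG4017 (0.33 to 1.38), both with time in untreated guts. With 5 times the pseudocount, 93, 423, 213 and 646 genes were 2-fold apart for uracil at 2 h, uracil at 16 h, time in untreated and time in uracil guts, against 257, 741, 483 and 1051, and 1 member was higher with time in untreated guts in place of 2. With a mean of at least 10 CPM these counts were 133, 413, 292 and 590. Of the genes counted at 2 h, 49.8% were higher, and 30.8% with that filter. For time in untreated guts 49.7% were higher, 37.6% with 5 times the pseudocount and 67.2% with columns scaled to the same total, a scaling that moved the median of all genes by 0.143 in untreated and 0.108 in uracil guts. The limma calls went from 3 to 29 without a filter, to 14 with equal totals and to 5 with edgeR for uracil, and from 36 to 329, 307 and 10 for time. The cause of these changes was not tested. No library could be left out, because each group has 1. No paired analysis was possible because each group has 1 library and the groups share only the replicate number 1, given in accession order.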
